A study of Aedes albopictus with 6 samples.

Results

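Genes of the ecdysteroid and juvenile hormone systems were followed in the ovary of the mosquito *Aedes albopictus*, in 3 control libraries and 3 libraries with overexpression of the PIWI-interacting RNA Aalpi18529 (n = 3 per group). Per the series' design text, the small RNA was raised with a mimic, a synthetic copy, and the subject was ovarian development after a blood meal. The labels give no strain, age, hour after feeding or number of females per library, and the control treatment is named only as control. No value for the small RNA is used here, and its overexpression is known from the labels only. Genes were chosen by a rule on their descriptions, for the names of ecdysteroids, ecdysone-induced factors, nuclear receptors and juvenile hormone proteins. The rule used no values, but earlier results of these data were known when it was made. Of 23529 genes with values, 58 matched. Nothing in the sources used here says that libraries came from separate groups of females, so p-values measure only the spread between these libraries, which may be technical.

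In blood-fed mosquitoes the ovary releases ecdysone, which is converted to 20-hydroxyecdysone, the active hormone. The hormone binds the ecdysone receptor paired with ultraspiracle, and the pair switches on a cascade of early transcription factors, most of them nuclear receptors themselves. Juvenile hormone, a lipid made in the corpora allata, readies the ovary and fat body for a blood meal, acts through the receptor Methoprene-tolerant and its target Krueppel homolog 1, and is broken down by esterases and epoxide hydrolases. No gene with values carried the name methoprene-tolerant, so the receptor could not be followed under that name.

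The table was read at a nearly even depth, with 15719412 to 16465531 estimated counts per library, of which the 58 genes took 0.274% to 0.287%. The labelled tissue was clear. The 18 germ line markers were all tested and summed to 9493 to 9753 CPM (estimated counts relative to the TMM-scaled library total) in controls and 9663 to 10005 CPM with overexpression, led by *oskar*, *vasa* and the vitellogenin receptor. The 49 follicle cell markers summed to 7524 to 7648 and 7366 to 7961 CPM. Fat body markers (24 genes) summed to 133 to 164 and 161 to 219 CPM, midgut markers (82 genes) to 17.6 to 40.1 and 13.9 to 21.2 CPM, and brain and corpora allata markers (6 genes) to 8.84 to 11.9 and 10.4 to 12.7 CPM. None of these markers was at 0 in all 6 libraries, but 45 of the midgut, 7 of the fat body, 4 of the follicle cell and 2 of the brain list averaged under 0.1 CPM. Muscle markers (33 genes) summed to 1197 to 1214 CPM in controls and 1108 to 1139 CPM with overexpression, without overlap. Overexpression library 1 stood apart in the yolk precursor genes of the fat body list. It had 286 counts of vitellogenin-A1 (LOC109413693) where the other libraries had 13 to 24, and 305 of LOC109413684 where they had 0 to 4. Of the 8 fat body markers tested, 7 were higher and 1 lower with overexpression, and 0 had an adjusted p under 0.05 in edgeR. At an unadjusted p under 0.05 there were 2 (25%, beside 4.92% of all genes), LOC109413693 and transferrin (LOC109433636). Transferrin had 29, 26 and 25 counts in controls and 47, 52 and 38 with overexpression. Control 3 stood apart in some trypsin genes of the midgut list. It had 182.5 estimated counts of trypsin 3A1 (LOC109411296) where the other libraries had 0 to 10.11, and 115 of trypsin-1 (LOC109420035) where they had 0 to 30. In whole ovaries, fewer cells of a type and less RNA per cell cannot be told apart. The part of these other tissues in the values below was not tested.

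No hormone gene was called. Of the 58, 45 had enough counts to be tested, and 0 passed a Benjamini-Hochberg adjusted p of 0.05 in edgeR's quasi-likelihood test, where 2 of all 15540 genes (0.0129%) did. The lowest adjusted p among the hormone genes was 0.963. DESeq2 called 0 as well, against 15 genes (0.064%) over the whole table. At an unadjusted p under 0.05 there was 1 hormone gene (2.22% of those tested), a lower one, beside 4.92% of all genes, 2.42% higher and 2.5% lower. In 4 of the 45 (8.89%) the overexpression libraries lay wholly on one side of the controls, 2 above and 2 below, beside 10.4% of all genes, 5.25% above and 5.12% below. Log2 fold changes, overexpression minus control and called log2 differences below, had a median of -0.02 over the hormone genes and 0.00 over all genes, and 21 were positive and 24 negative, where 50.4% of all genes were positive. These shares were close to or below those of the whole table, so they give no result particular to hormone genes. Without overexpression library 1, too, 0 hormone genes were called by edgeR, with 3 at an unadjusted p under 0.05, beside 4.47% of all 15812 genes then tested.

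**Figure D1:**
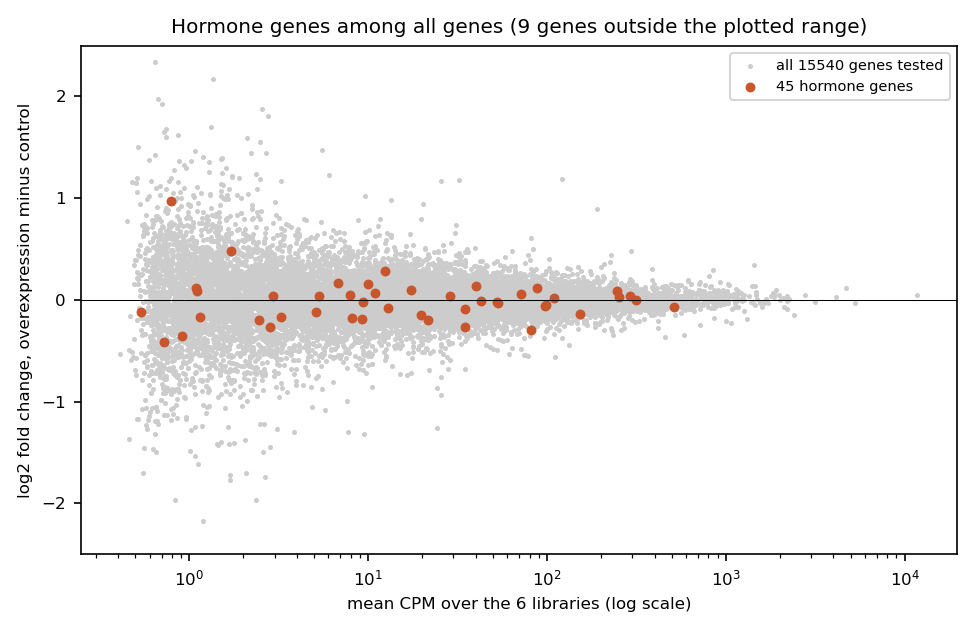
Log2 fold change against mean CPM over the 6 libraries (log scale) for all 15540 genes tested (grey) and the 45 hormone genes (orange); 9 genes lie outside the plotted range. The hormone genes lie within the grey cloud at each abundance, and their spread widens among rare genes.

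How large a change between these libraries could have gone unseen is described by the 95% interval of each fold change. Like the p-values, the interval measures only the spread between these libraries. Reads may be divided uncertainly between copies of a gene, which the interval does not fully cover, and copies are counted as separate genes here. For 37 of the 45 genes the interval lay inside a 2-fold change in either direction, and for 27 inside a 1.5-fold change. Among the 20 hormone genes above 20 CPM, the interval lay inside 1.5-fold for 17. All 8 genes whose interval reached a 2-fold change averaged under 2.95 CPM. The 13 genes that were not tested averaged at most 0.488 CPM and had no more than 10.01 estimated counts in any library. Both edgeR without the filter and DESeq2 fitted all 13, with 0 called and 0 at an unadjusted p under 0.05, and at such counts only large changes could have been detected.

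**Figure D2:**
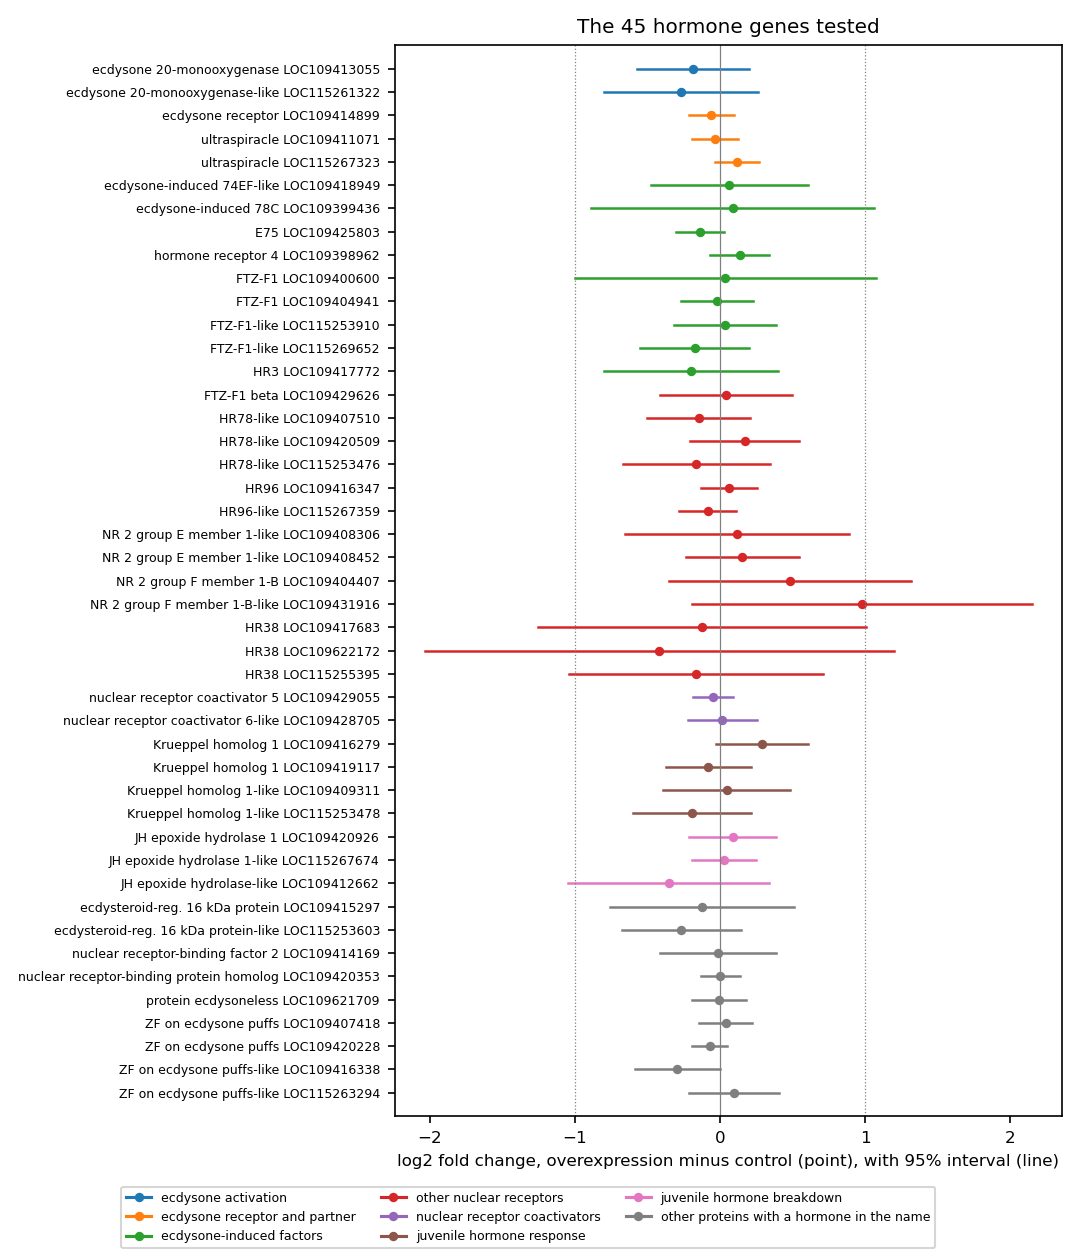
Log2 fold change (point) and its 95% interval (line) for the 45 hormone genes tested, coloured by role; dotted lines mark a 2-fold change. The lines cross 0 for 44 genes, and for the exception, LOC109416338, the interval runs from -0.59 to -0.00.

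The ecdysone receptor is the subunit that binds the hormone. The gene (LOC109414899, scaffold NW_021839054.1, positions 1970437 to 2712769) had 1557, 1734 and 1561 counts in controls 1, 2 and 3 and 1510, 1472 and 1557 with overexpression. The groups overlapped, at 99.5 ± 5.76 and 95.4 ± 4.1 CPM (SD, n = 3). The log2 difference was -0.06 ± 0.07 (SE; adjusted p 0.971, edgeR), with an interval of -0.21 to 0.09.

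Ultraspiracle, the partner that the receptor needs to bind DNA, was listed as 2 genes on scaffold NW_021837045.1. LOC115267323 (positions 118921378 to 119017164) had 1419.07, 1342.8 and 1379.19 estimated counts in controls and 1448.33, 1539.53 and 1393.44 with overexpression. As CPM its overexpression libraries lay above all 3 controls, at 92.1 ± 3.84 against 85 ± 3.94 (SD, n = 3), but the log2 fold change of 0.12 ± 0.07 (SE) did not pass (edgeR adjusted p 0.963). The other copy, LOC109411071, stood at 54.1 ± 2.88 and 52.8 ± 1.2 CPM, with overlapping groups. The estimates of these copies added up to whole numbers in every library, 2330, 2195 and 2254 in controls and 2275, 2390 and 2229 with overexpression. How reads were divided between such copies is uncertain, so the sum is given beside them. In the sum the groups overlapped, and the log2 difference was 0.06 ± 0.06 (SE), with an interval of -0.08 to 0.19.

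Ecdysone 20-monooxygenase, the P450 enzyme that converts ecdysone to the active hormone, was also present as a pair on scaffold NW_021837267.1. LOC109413055 (positions 16562061 to 16700595) had 157.98, 134.42 and 189.17 estimated counts in controls and 124.89, 146.44 and 140.61 with overexpression. LOC115261322 (positions 14739885 to 14766132) had 49.02, 47.58 and 54.83, then 46.11, 45.56 and 31.39. In CPM the second copy was lower in all 3 overexpression libraries, the first overlapped, and both had an edgeR adjusted p of 0.971. Their sum was 207, 182 and 244 counts in controls and 171, 192 and 172 with overexpression. That sum overlapped between groups, with a log2 fold change of -0.21 ± 0.15 (SE) and an interval of -0.54 to 0.13.

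**Figure D3:**
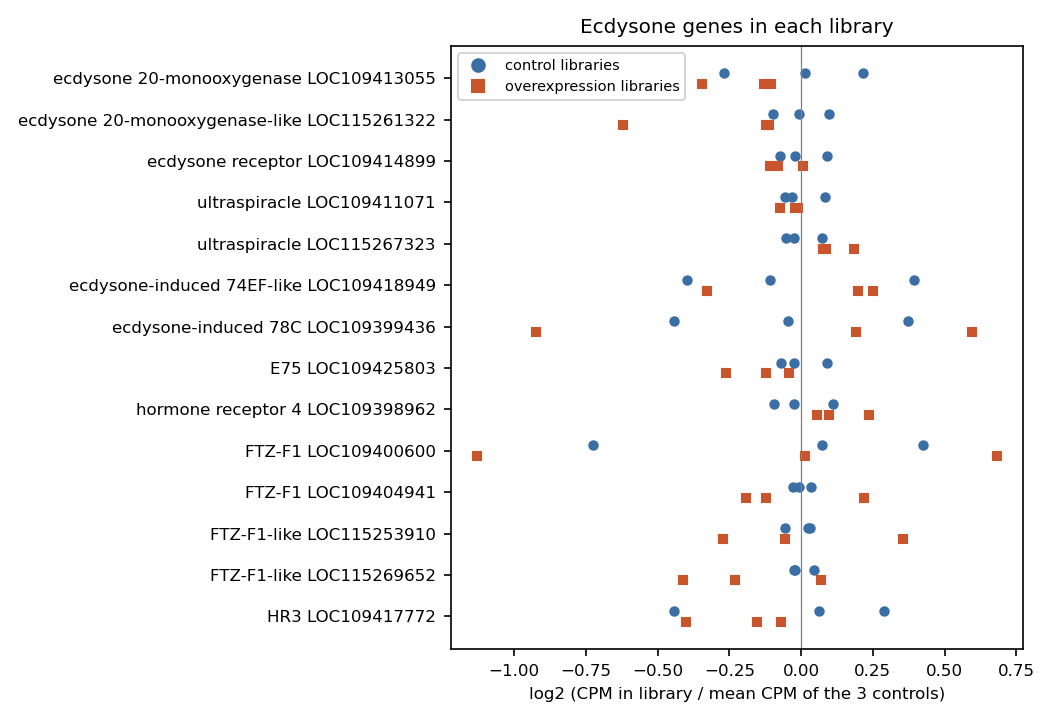
CPM of the ecdysone-activating enzyme, receptor, partner and induced factors in each library, as the log2 ratio to the mean of the 3 controls (circles controls, squares overexpression). The receptor, ultraspiracle and E75 libraries lie close together, and those of 78C and of the FTZ-F1 copy LOC109400600 lie far apart within both groups. In the other FTZ-F1 copies the controls lie close together and the overexpression libraries lie further apart.

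The 9 genes for ecdysone-induced factors had log2 fold changes from -0.20 to 0.13, 5 positive and 4 negative, with 0 at an unadjusted p under 0.05. E75, an early nuclear receptor induced directly by the hormone, had the lowest unadjusted p of them. Its gene (LOC109425803, scaffold NW_021837378.1, positions 53176677 to 53386397) had 2492, 2793 and 2516 counts in controls and 2493, 2131 and 2287 with overexpression. The third and the second overexpression library were below every control in counts, while the first was not. It stood at 160 ± 9.37 and 145 ± 10.9 CPM (SD, n = 3), which is a log2 difference of -0.14 ± 0.07 (SE; adjusted p 0.963, edgeR).

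Hormone receptor 4, a nuclear receptor that is induced after the early genes in *Drosophila*, had 600, 681 and 595 counts in controls and 643, 724 and 641 with overexpression (LOC109398962). As CPM, controls 1 and 3 lay below every overexpression library and control 2 above 2 of them, at 38.5 ± 2.82 and 42.2 ± 2.81 CPM (SD, n = 3). The log2 difference was 0.13 ± 0.09 (SE; adjusted p 0.963, edgeR). E74, an early factor of the ETS family, had 128, 229 and 163 counts in controls and 196, 202 and 132 with overexpression (LOC109418949). The groups overlapped almost completely, and its interval ran from -0.48 to 0.60.

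The rarer factors were HR3, which in *Drosophila* activates FTZ-F1, and the nuclear receptor E78. HR3 (LOC109417772) had 51, 45 and 32 counts in controls and 38, 40 and 31 with overexpression. E78 (LOC109399436) had 22, 17 and 13, then 26, 9 and 19. At these counts the intervals were wide, -0.80 to 0.40 for HR3 and -0.89 to 1.06 for E78.

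FTZ-F1 is the nuclear receptor that makes the fat body of *Aedes aegypti* competent to respond to ecdysteroids. It had 4 listed genes on scaffold NW_021838576.1. The copy with most reads, LOC109404941 (positions 25552407 to 26147807), had 866.46, 869.46 and 862.35 estimated counts in controls and 749.75, 780.81 and 964.58 with overexpression. Its controls were close together, while its overexpression libraries lay on both sides of them. Summed over the 4 copies, the counts were 1489, 1553 and 1505 in controls and 1527, 1334 and 1525 with overexpression, with only overexpression library 2 below the controls. The sum stood at 93.3 ± 1.88 and 92.2 ± 7.6 CPM (SD, n = 3), which is a log2 difference of -0.02 ± 0.07 (SE) with an interval of -0.18 to 0.15.

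Among the 18 other nuclear receptor genes, 13 were tested, 7 with positive and 6 with negative log2 fold changes. HR96, a receptor linked to lipid and toxin responses in *Drosophila*, had 1136.7, 1243.8 and 1032.16 estimated counts in controls and 1159.74, 1126.43 and 1188.83 with overexpression (LOC109416347). Together with its second copy it had 1694, 1789 and 1669, then 1691, 1652 and 1730. The groups of the sum overlapped, at 106 ± 4.15 and 107 ± 4.01 CPM (SD, n = 3), with an interval of -0.13 to 0.15. The 3 HR78 genes summed to 495, 430 and 573 counts in controls and 473, 485 and 428 with overexpression. Control 3 was the highest library, and the interval of the sum ran from -0.34 to 0.19. FTZ-F1 beta (LOC109429626) had 100, 85 and 71 counts, then 88, 77 and 92, with no separation.

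HR38 can take ultraspiracle from the ecdysone receptor in mosquitoes. Its 3 genes, on scaffold NW_021838687.1, summed to only 28, 39 and 61 counts in controls and 40, 33 and 33 with overexpression. Control 3 was the highest library, and the interval was -0.93 to 0.47. The largest fold change among the hormone genes tested was in LOC109431916, described as nuclear receptor subfamily 2 group F member 1-B-like (the *seven-up* or COUP class, also known as a partner of ultraspiracle). It had 2.55, 13.59 and 9.26 estimated counts in controls and 10.57, 18.31 and 21.38 with overexpression, a log2 difference of 0.98 ± 0.51 (SE; adjusted p 0.963, edgeR). With its copy LOC109404407 it summed to 22, 30 and 44 counts, then 35, 50 and 60. Overexpression library 1 lay below control 3 and the groups overlapped, and the sum's log2 fold change of 0.64 ± 0.32 (SE) did not pass (edgeR adjusted p 0.963). The 4 genes named group E member 1 and the 3 named photoreceptor-specific were rare except LOC109408452, at 9.44 ± 1.75 and 10.5 ± 0.787 CPM (SD, n = 3).

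Nuclear receptor coactivators were represented by 2 genes. Coactivator 5 (LOC109429055) had 1604, 1582 and 1728 counts in controls and 1525, 1587 and 1517 with overexpression. As CPM, control 2 lay below overexpression libraries 2 and 3, so the groups overlapped, and the interval was -0.19 to 0.09. Coactivator 6 (LOC109428705) stood at 109 ± 14.1 and 110 ± 9.14 CPM (SD, n = 3), with an interval of -0.22 to 0.25.

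The enzymes of juvenile hormone synthesis were scarcely read. Juvenile hormone acid O-methyltransferase, which forms the methyl ester of the hormone, had 2 genes whose sum was 6, 5 and 2 counts in controls and 9, 8 and 9 with overexpression. Methyl farnesoate epoxidase, which adds the epoxide ring, had 2 genes summing to 3, 5 and 7, then 3, 9 and 5. The limit that a count of 0 allows is 3 counts, or 0.182 to 0.193 CPM by library, so most of these values are near it. The methyltransferase sums did not overlap between groups, but no gene of either enzyme was tested, since all 4 fell below the abundance filter.

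Of the breakdown enzymes, epoxide hydrolase 1, which opens the hormone's epoxide ring, was read from 2 genes. LOC115267674 (scaffold NW_021838462.1, positions 484610 to 486146) had 4539.55, 3712.31 and 4012.29 estimated counts in controls and 4473.48, 4089.96 and 3639.53 with overexpression. LOC109420926 (scaffold NW_021837434.1, positions 630755 to 648004) had 3160.45, 4552.69 and 3899.71, then 3834.52, 3629.04 and 4524.47. In the controls the order of the libraries was opposite in the copies, overexpression library 3 was lowest in the first and highest of its group in the second, and the share of LOC115267674 ran from 44.6% to 59%. Their sum was 7700, 8265 and 7912 counts in controls and 8308, 7719 and 8164 with overexpression. It stood at 490 ± 13.1 and 508 ± 21.8 CPM (SD, n = 3), which is a log2 difference of 0.05 ± 0.05 (SE) with an interval of -0.06 to 0.17. Another hydrolase gene, LOC109412662, is on the scaffold of LOC115267674 (positions 467399 to 469122). It had 15, 19 and 16 counts in controls and 11, 13 and 14 with overexpression, lower in all 3, with a log2 fold change of -0.36 ± 0.30 (SE; adjusted p 0.971, edgeR). The 4 genes described as juvenile hormone esterase-like had between 0 and 7.73 estimated counts in any library and were not tested.

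Krueppel homolog 1, a zinc finger protein induced by juvenile hormone, gave its name to 4 genes. They were grouped by description alone, and whether each is the juvenile hormone target was not tested. LOC109416279 (scaffold NW_021838770.1, positions 286585 to 289127) had 196.95, 164.45 and 182.14 estimated counts in controls and 241.84, 205.69 and 200.31 with overexpression. All 3 overexpression libraries were above all controls, at 13.6 ± 1.25 against 11.2 ± 1.19 CPM (SD, n = 3). The log2 difference was 0.29 ± 0.14 (SE; adjusted p 0.963, edgeR). Its estimates did not add up to whole numbers with those of another Krueppel homolog gene but with those of LOC109424085, described as sal-like protein 3, a gene outside the rule that was named because its estimates matched. That partner had 774.05, 794.55 and 872.86 estimated counts in controls and 693.16, 791.31 and 589.69 with overexpression. The sum was 971, 959 and 1055, then 935, 997 and 790, overlapping and on the lower side with a log2 fold change of -0.10 ± 0.09 (SE).

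The other Krueppel homolog genes showed no separation between groups. LOC109419117 and LOC109409311, which share scaffold NW_021839020.1, summed to 359, 358 and 310 counts in controls and 299, 335 and 345 with overexpression, with an interval of -0.31 to 0.24. LOC115253478 had 347.61, 296.42 and 488.34 estimated counts in controls and 325.91, 353.18 and 285.93 with overexpression. Control 3 was the highest library, and without it the log2 fold change turned from -0.19 to 0.019. No partner was found whose estimates make its own whole. It lies on the scaffold of sal-like protein 3, NW_021837045.1, at positions 191581168 to 191582508, where sal-like protein 3 is at 191533034 to 191535472.

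Proteins that carry the hormone's name without being part of its receptor or metabolism made up the last 9 genes. Zinc finger protein on ecdysone puffs, an RNA-binding protein found at active chromatin in *Drosophila*, had 4 genes. LOC109420228 had 8310, 9021 and 8451 counts in controls and 7754, 7955 and 8195 with overexpression. As CPM overexpression library 3 lay among the controls, and the interval was -0.19 to 0.05. LOC109416338 was the only hormone gene at an unadjusted p under 0.05 (0.0494, edgeR adjusted p 0.963). It had 1357.01, 1287.06 and 1742.03 estimated counts in controls and 1340.22, 1038.12 and 1110.58 with overexpression. The first overexpression library lay among the controls as CPM, and the log2 fold change was -0.29 ± 0.13 (SE). Its estimates added up to whole numbers with those of LOC109407418 and LOC115263294 on the same scaffold, NW_021837600.1. The sum of these 3 was 6342, 6621 and 6206 counts in controls and 6070, 6273 and 6007 with overexpression. It stood at 393 ± 15.1 and 386 ± 7.67 CPM (SD, n = 3), with overlapping groups, a log2 fold change of -0.03 ± 0.05 (SE; adjusted p 0.974, edgeR).

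The ecdysteroid-regulated 16 kDa protein, a small secreted protein first described in a moth, had 2 genes summing to 661, 722 and 741 counts in controls and 706, 475 and 562 with overexpression. Overexpression libraries 2 and 3 were below every control and library 1 was not, and the log2 fold change of the sum was -0.25 ± 0.13 (SE; adjusted p 0.963, edgeR). Ecdysoneless (LOC109621709), needed for ecdysone production in *Drosophila*, had 724, 655 and 711 counts in controls and 702, 639 and 688 with overexpression. It stood at 42.9 ± 2.83 and 42.6 ± 2.27 CPM (SD, n = 3). The nuclear receptor-binding protein homolog (LOC109420353) stood at 316 ± 17.1 and 317 ± 15.5 CPM, and nuclear receptor-binding factor 2 (LOC109414169) at 9.44 ± 0.867 and 9.33 ± 1.75 CPM (SD, n = 3). The intervals were -0.20 to 0.18, -0.13 to 0.14 and -0.41 to 0.38 in the same order, and the groups overlapped in each gene.

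Many hormone genes had estimates that were not whole numbers. Only 17 of the 58 (29.3%) had whole-number estimates in all 6 libraries, against 35.7% of all genes, counting a value as whole within 0.001. Of the other 41, 36 could be placed in 16 sets of copies whose estimates added up to whole numbers in all 6 libraries, with no sum more than 0.01 away. There were 11 pairs and 5 sets of 3 or 4. In 14 of the 16 sets every gene was a hormone gene, and the other 2 paired Krueppel homolog 1 with sal-like protein 3 and a juvenile hormone esterase-like gene with venom carboxylesterase-6-like (LOC115257694). Only the pairs were searched over all genes. The 5 larger sets were searched first within the same description, so the search itself made all their genes hormone genes. The sets of synthesis enzymes, esterases and photoreceptor-specific receptors rest on few counts, so their match is less certain.

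Summing the copies narrowed the spread between replicates. In 11 of the 13 sets that could be tested as a sum, the coefficient of variation of the sum was below that of every single copy. For FTZ-F1 it was 5.97% for the sum and 11.2% to 47.8% for the copies, and for epoxide hydrolase 1 it was 3.6% against 10.6% and 15%. For ultraspiracle the sum and the copies were alike, at 4.02% against 4.12% and 4.4%. The exceptions were the Krueppel homolog 1 pair on scaffold NW_021839020.1 (9.25%, with one copy at 7.71%) and the photoreceptor-specific receptors. A sum of counts tends to have a lower coefficient of variation than its parts even when they share no reads. Sums of unrelated genes were not compared, so these values do not tell whether the copies share reads. Of the 13 sums, 0 had an unadjusted p under 0.05 and 0 separated the groups (lowest edgeR adjusted p 0.963).

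**Figure D4:**
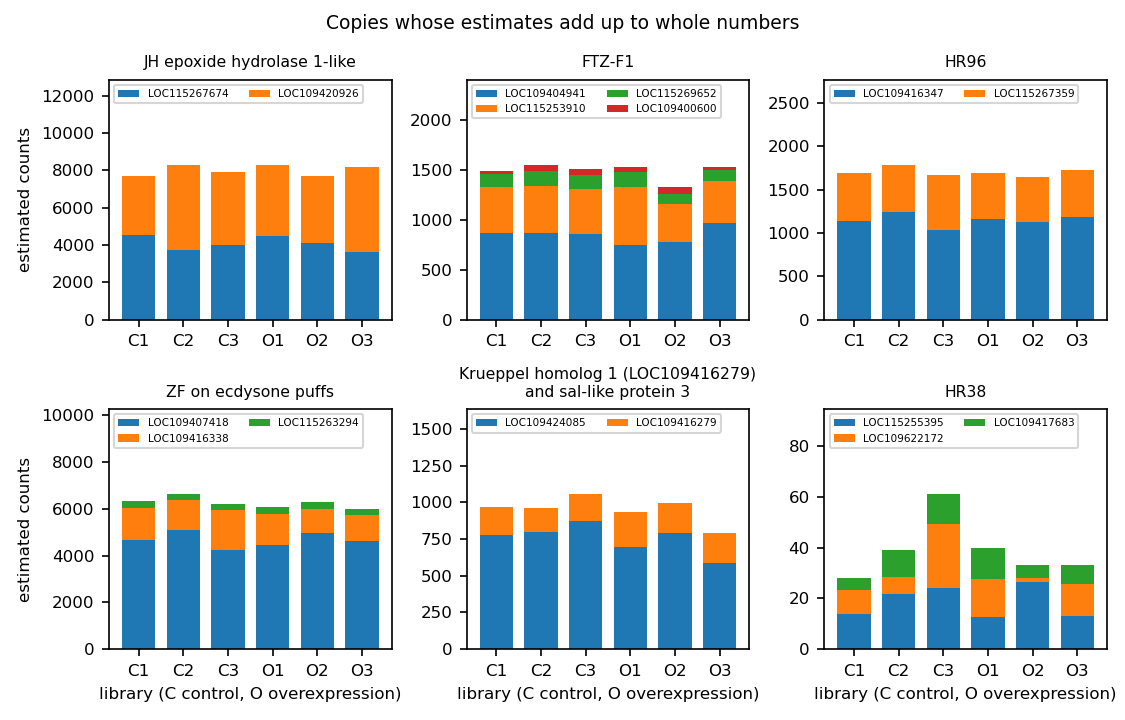
Estimated counts of each copy, stacked, in the 6 libraries for 6 sets of copies that add up to whole numbers. The boundary between the copies of epoxide hydrolase 1 moves from library to library while the height of the bar changes less, and the bars of control and overexpression libraries overlap in each panel.

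**Figure D5:**
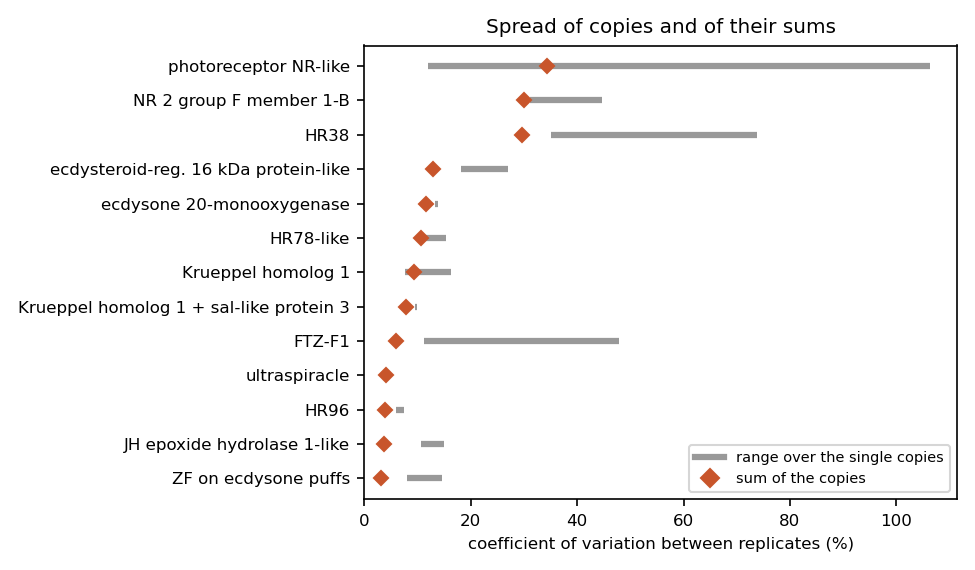
Coefficient of variation between replicates (pooled over both groups, in percent) for the sum of the copies (diamond) and its range over the single copies (bar), for 13 sets. The diamond lies left of the bar in 11 sets.

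The copies were also compared with RefSeq's gene table of another assembly of the species, AalbF5, by gene ID. Of the 58 hormone genes 31 (53.4%) had an entry there, beside 54.2% of all genes with values. In 15 of the 16 sets exactly 1 copy had an entry, and for ultraspiracle 0 did. The copy with the most estimated counts was the one with an entry in 6 sets.

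The wider hormone pathway was followed through 75 genes outside the name rule. Of these, 44 fell into 18 sets of copies within one list whose estimates added up to whole numbers, matched after the single genes had been examined. Of the 16 sums that could be tested, 0 were called by edgeR and 0 had an unadjusted p under 0.05. In 2 of the 16 the groups did not overlap, beside 10.4% of all genes. These were the phosphomevalonate kinase and corazonin sums, both higher with overexpression, as were 5.25% of all genes without overlap. The corazonin sum had only 27, 29 and 21 counts in controls and 31, 31 and 38 with overexpression. Of 9 genes for ecdysteroid synthesis enzymes, 8 were tested, with 0 at an unadjusted p under 0.05. Log2 fold changes were negative in 7 and positive in 1, but some of these genes are copies of one set. With copies summed 6 were tested, 5 negative and 1 positive, where 50.4% of all genes were positive. The gene for the P450 enzyme CYP306A1 with most reads (LOC109411508), which hydroxylates the sterol precursor, had 673.48, 637.46 and 626.17 estimated counts in controls and 638.82, 488.64 and 608.59 with overexpression. The groups overlapped, at 39.8 ± 2.38 and 36.5 ± 5.1 CPM (SD, n = 3), and the sum with its copy overlapped too, at 48.3 ± 2.27 and 44.6 ± 3.83 CPM. CYP302A1 (LOC109399201), a later step of the route, had 53, 53 and 58 counts in controls and 45, 47 and 50 with overexpression. All 3 overexpression libraries were lower, but the log2 fold change of -0.17 ± 0.19 (SE) was within its error (edgeR adjusted p 0.971). CYP315A1 (LOC109406906) had 138, 130 and 132 counts, then 160, 134 and 132, with no separation. The cholesterol 7-desaturase that starts the route (LOC115255620) had 11.79, 17.77 and 28.68 estimated counts in controls and 13.45, 9 and 10 with overexpression. Its groups overlapped, with a log2 fold change of -0.84 ± 0.40 (SE; adjusted p 0.963, edgeR), and with its copy it summed to 14, 22 and 31 counts, then 17, 11 and 11.

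Of 10 genes for other hormone-response factors 5 were tested, 4 positive and 1 negative, with 0 at an unadjusted p under 0.05. With copies summed 4 were tested, 3 positive and 1 negative. Broad-complex, an early ecdysone target, had 3 genes tested. LOC109428487 and LOC115256538, with log2 fold changes of -0.43 ± 0.25 (SE) and 0.16 ± 0.16, make up a set of copies that summed to 435, 452 and 504 counts in controls and 487, 434 and 390 with overexpression. The groups of the sum overlapped, at 28.5 ± 1.75 and 27.5 ± 2.64 CPM (SD, n = 3), with an interval of -0.29 to 0.18 on the log2 scale. Hepatocyte nuclear factor 4-alpha (LOC109403694) stood at 20.5 ± 3 and 23.2 ± 4.21 CPM (SD, n = 3). Of 8 genes for the peptide corazonin and the receptor torso 3 were tested, 2 positive and 1 negative. The torso-like receptor LOC109410267, of the class that receives the prothoracicotropic hormone, stood at 87.4 ± 5.64 and 83.2 ± 8.83 CPM, within its spread.

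The list for the mevalonate pathway, which supplies the farnesyl chain of juvenile hormone, also took in genes named farnesol dehydrogenase. That enzyme acts on farnesol and is not part of the mevalonate pathway. The list had 36 genes, of which 19 were tested, 9 positive and 10 negative. At an unadjusted p under 0.05 there was 1 (5.26%, beside 4.92% of all genes), an acetyl-CoA acetyltransferase-like gene (LOC115253562) of the pathway's first step. It had 1002.79, 966.32 and 1027.93 estimated counts in controls and 759.09, 889.85 and 772.01 with overexpression. Each overexpression library was below each control, with a log2 fold change of -0.27 ± 0.08 (SE) that did not pass over all genes (edgeR adjusted p 0.963). Its estimates added up to whole numbers with those of LOC109416406 and LOC109426727, whose log2 fold changes were 0.06 and 0.22. The sum of these 3 copies was 2158, 2281 and 2121 counts in controls and 2148, 1957 and 2187 with overexpression. The groups of the sum overlapped, at 135 ± 5.51 and 132 ± 9.03 CPM (SD, n = 3), with an interval of -0.18 to 0.13, and with copies summed 0 genes of this list had an unadjusted p under 0.05. The list for sterol transport, made by the names NPC and START domain, had 12 genes with 5 tested, 2 positive and 3 negative. At an unadjusted p under 0.05 there was 1 (20%, beside 4.92% of all genes). The NPC cholesterol transporter genes tested had an unadjusted p of 0.0603 or more (edgeR). The 1 gene, START domain-containing protein 10-like (LOC109401384), is of a lipid-transfer family and was listed for its domain name, not as a known sterol carrier. It had 108, 116 and 117 counts in controls and 91, 85 and 78 with overexpression, without overlap. The log2 difference was -0.39 ± 0.15 (SE; adjusted p 0.963, edgeR).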

How the data were processed

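RNA-seq of ovaries was deposited as 1 table of estimated counts per gene for 6 libraries, in columns headed as read counts per the file headers. The deposited estimated counts have up to 2 decimals, and no scaling was applied to them, judging by their unequal totals. HISAT and Bowtie2 are named in the submitters' processing notes. For the counting program, genome build and use of strand, nothing is given in the sources used here. Of 34479 rows, 10950 were blank in all libraries and left out, and 0 count columns belonged to no sample. Groups follow the sample titles and genotype labels.

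Estimates were rounded, filtered with filterByExpr (15540 genes left), scaled by TMM and tested with edgeR 4.0.16 (R 4.3.3), quasi-likelihood F test without covariate, Benjamini-Hochberg adjusted over all genes, limit 0.05. DESeq2 1.42.0 was an alternative. The SE is the fold change's size over the square root of F, and the 95% interval uses the test's degrees of freedom, for each gene on its own. CPM uses TMM-scaled totals, is not corrected for transcript length, and is not compared between genes. Floors (3 counts per library) and counts cover counting error only. Copies were matched by adding estimates, within 0.015 for pairs, 0.025 for 3 and 0.03 for 4 copies. For hormone genes, pairs were searched over all genes. Larger sets were searched first within the same description, and then with a gene of another description added. For the pathway genes outside the rule, sets of each size were searched within one list only. No pair of libraries was alike within counting noise (chi-square per degree of freedom at least 4.17).

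Members, roles and lists were chosen with earlier results of these data known. Named were the core hormone genes, the 3 most read per role and the 5 of smallest p in each direction. In simulated counts for 15540 genes with 200 changed 2-fold, 67% were recovered, and 100% of those above 20 CPM. At 1.5-fold it was 42.5% and 82.1%. Among the unchanged genes 12 were called at 2-fold and 10 at 1.5-fold. The counts were drawn with the fit's dispersion alone, without the further gene-wise spread that the quasi-likelihood test estimates. With 200 genes changed at once, an adjusted p of 0.05 is easier to pass than in these data, where 2 genes passed. The shares therefore do not tell how often a single changed hormone gene would be called. Troponin C-like (LOC109418939), at 74.8 CPM and a log2 fold change of -0.54 in these data, had an edgeR adjusted p of 0.96.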

Additional observations from a re-analysis of the deposited data

How the results depend on the processing

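In all 12 alternatives 0 hormone genes were called. Hormone genes at an unadjusted p under 0.05 numbered 1 as reported, 2 with the replicate block, 0 when counts were summed over one description, 0 when read-sharing copies were summed (chosen after seeing the data), and 0 to 3 when 1 library was left out. The share of all genes at that limit was 4.92% as reported, 4.59% with the replicate block and 5.17% summed over one description. It was 4.91% with read-sharing copies summed and 4.47% to 5.25% with 1 library left out. These counts therefore give no result particular to hormone genes. Without overexpression library 1 the hormone genes were E75, LOC109416338 and an ecdysteroid-regulated 16 kDa gene (LOC115253603), and without overexpression library 2 or 3 there were 0. Over all genes, 2 were called as reported, 15 with the DESeq2 Wald test, 0 with the replicate block, 1 summed over one description and 0 to 2 with 1 library left out; the cause was not tested. The replicate numbers did not pair libraries (correlations of deviations -0.01, 0.04 and -0.01). Of 370 fold changes of 37 named genes, 335 kept their direction and 35 in 18 genes changed it, 34 of them with 1 library left out and 1 with the replicate block (LOC109400600, -0.028). With 1 library left out the log2 fold changes ran from -0.0625 to 0.011 in LOC109411071, -0.10 to 0.31 in LOC109418949, -0.26 to 0.41 in LOC109399436, -0.45 to 0.38 in LOC109400600, -0.16 to 0.058 in LOC109404941, -0.16 to 0.17 in LOC115253910, -0.028 to 0.21 in LOC109420926, -0.045 to 0.13 in LOC115267674, -0.11 to 0.16 in LOC109409311, -0.34 to 0.019 in LOC115253478, -0.066 to 0.12 in LOC109428705, -0.089 to 0.19 in LOC109429626, -0.015 to 0.12 in LOC109416347, -0.58 to 0.14 in LOC109417683, -0.86 to 0.38 in LOC109622172, -0.57 to 0.0075 in LOC115255395, -0.043 to 0.027 in LOC109420353 and -0.038 to 0.10 in LOC109407418. With read-sharing pathway copies summed, also chosen after seeing the data, the mevalonate list had 0 genes at an unadjusted p under 0.05 where it had 1, and the other lists kept their counts. Depth limits the rare receptors and the synthesis enzymes.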

Other observations

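On scaffold NW_021838576.1 the copies of FTZ-F1 and methyl farnesoate epoxidase lie in mirrored order in the deposited table. From low to high position come FTZ-F1 (LOC109404941, 25552407 to 26147807), FTZ-F1-like (LOC115269652, 26173212 to 26236550) and the epoxidase (LOC109400580, 26273991 to 26289634). They are followed by the other epoxidase (LOC109404918, 27673699 to 27704287), FTZ-F1-like (LOC115253910, 27733387 to 28339762) and FTZ-F1 (LOC109400600, 28533767 to 28708609). LOC109404941 and LOC109404918 have an entry in RefSeq's AalbF5 gene table by gene ID, and the other 4 do not.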
